A study of Homo sapiens with 24 samples.

Results

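The 2 untreated vector controls of a human cell line study were compared with each other, oeNC replicates 1 to 3 against shScramble replicates 1 to 3, over every gene expressed in them. The study used cells labelled SH-SY5Y, a neuroblastoma line, to follow the loss and gain of MCART1 (SLC25A51), the carrier that brings NAD+ into mitochondria, without and with the neurotoxin MPP+. Its 24 RNA-seq libraries form 8 groups of 3, and each arm had its own vector control: oeNC for overexpression (oeMCART1) and shScramble for knockdown (shMCART1). By its label neither control carries an SLC25A51 construct, and neither received MPP+. The same pair treated with 0.5 mM MPP+ for 24 h, oeNC_MPP against shScramble_MPP, was used as a second comparison. The vector backbone, the selection and whether each control was 1 clone or a pool are not given in the labels. Nothing there says that the 3 libraries of a group came from separate cultures, so p-values measure only a spread between libraries, which may be technical. The fitted model takes that spread from all groups in the fit, not only from the 2 controls.

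The members are the genes that reached 1 TPM in at least 3 of these 6 libraries, 13867 of the 63241 gene identifiers in the untreated table. TPM gives a transcript's share of the library, corrected for its length. Of the members, 12370 reached 1 TPM in all 6 libraries. At the edge of the rule, 462 genes that reached 1 TPM in exactly 3 libraries averaged a median of 1.04 TPM, and 516 genes left out at exactly 2 libraries averaged a median of 0.86 TPM. Between 13336 and 13747 genes reached 1 TPM in the oeNC libraries and between 13930 and 13942 in the shScramble libraries. Pearson's r of log2(TPM + 1) ran between 0.980 and 0.987 within oeNC, between 0.984 and 0.988 within shScramble and between 0.965 and 0.986 across the controls, so the ranges overlapped. In 25 genes all 3 oeNC libraries and no shScramble library reached 1 TPM, and in 105 genes all 3 shScramble libraries and no oeNC library did.

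An empty or scrambled vector is the baseline from which a gain or loss of a gene is read, so a difference between controls passes into any comparison made across the arms. A scrambled short hairpin enters the RNA interference machinery without a matched target, whereas an overexpression control carries no hairpin. SH-SY5Y cells are descended from a bone marrow metastasis of a neuroblastoma and normally express the sympathetic programme of that tumour, with PHOX2A among its transcription factors and tyrosine hydroxylase (TH) as its marker enzyme.

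Markers of that programme were mixed in these libraries. Of 22 adrenergic neuroblastoma transcription factor genes 15 passed the filter, and of 16 genes of catecholamine synthesis and transport 9 did. MYC had the highest level of the 15 (136 TPM in oeNC and 175 TPM in shScramble on average). It is also counted among the immediate early genes below, so its level is not particular to that programme. PHOX2A, TH and ELAVL4, a neuronal RNA-binding protein, were listed at 0 TPM in all 6, and DBH, the enzyme that makes noradrenaline, reached at most 0.07 TPM. Of 11 adrenergic neuroblastoma markers, 4 reached 1 TPM in every library, GATA2 (35.3 TPM in oeNC and 29.7 TPM in shScramble on average), GATA3, HAND2 and ISL1. GATA3 averaged 4.44 TPM in oeNC and 5.14 TPM in shScramble, HAND2 2.75 and 3.47 TPM, and ISL1 2.58 and 3.91 TPM. STMN2 averaged 1.08 TPM in oeNC and 1.48 TPM in shScramble, CHGA 1.28 and 1.16 TPM, and CHGB reached at most 0.34 TPM. The transcription factor genes SOX11 and TFAP2B and the dopamine and noradrenaline transporter genes SLC6A3 and SLC6A2 were also listed at 0 in all 6. An exact 0 in a table without counts can be an absent transcript or a failed estimate, and which of these holds here was not tested. SNRPN, SNURF and COL1A2 were listed at 0 as well. In bulk RNA, fewer cells of a type and less RNA per cell cannot be told apart.

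The epithelial keratins KRT8 and KRT18 stood at 86.96 to 104.46 TPM in oeNC and 77.43 to 98.07 TPM in shScramble, and the mesenchymal filament gene VIM averaged 351 TPM in oeNC and 389 TPM in shScramble. Summed over the 6 epithelial markers the level was 178 to 213 TPM in oeNC and 164 to 198 TPM in shScramble, with KRT19 listed at 0. KRT8 and KRT18 dominate that sum. CDH1 went the other way, at 1.69 to 2.27 TPM in oeNC and 3.83 to 3.91 TPM in shScramble. EPCAM did too, at 1.41 to 2.02 TPM in oeNC and 2.24 to 2.76 TPM in shScramble. In the longer list of epithelial markers 5 were tested, 0 called higher and 1 lower, with a median log2 difference of -0.40. Schwann markers summed to 4.27 to 4.51 TPM in oeNC and 6.11 to 6.97 TPM in shScramble. A short set of 5 haematopoietic markers summed to 0.29 to 0.74 TPM in oeNC and 0.34 to 1.12 TPM in shScramble, although the tissue label reads bone marrow. The longer list of 13 haematopoietic markers summed to 28.9 to 38.8 TPM in oeNC and 41.0 to 49.4 TPM in shScramble. Of its 3 tested members 0 were called on deposited values, and 2 were lower with the GC trend removed (4.60% over all genes in that fit). In both controls some defining markers of SH-SY5Y cells were thus listed at 0. Others were expressed, but apart from GATA2 those among the 11 markers were low. The cells are called here by their vector. The growth protocol names HEK293T cells beside SH-SY5Y cells; the origin of these libraries was not tested.

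**Figure D1:**
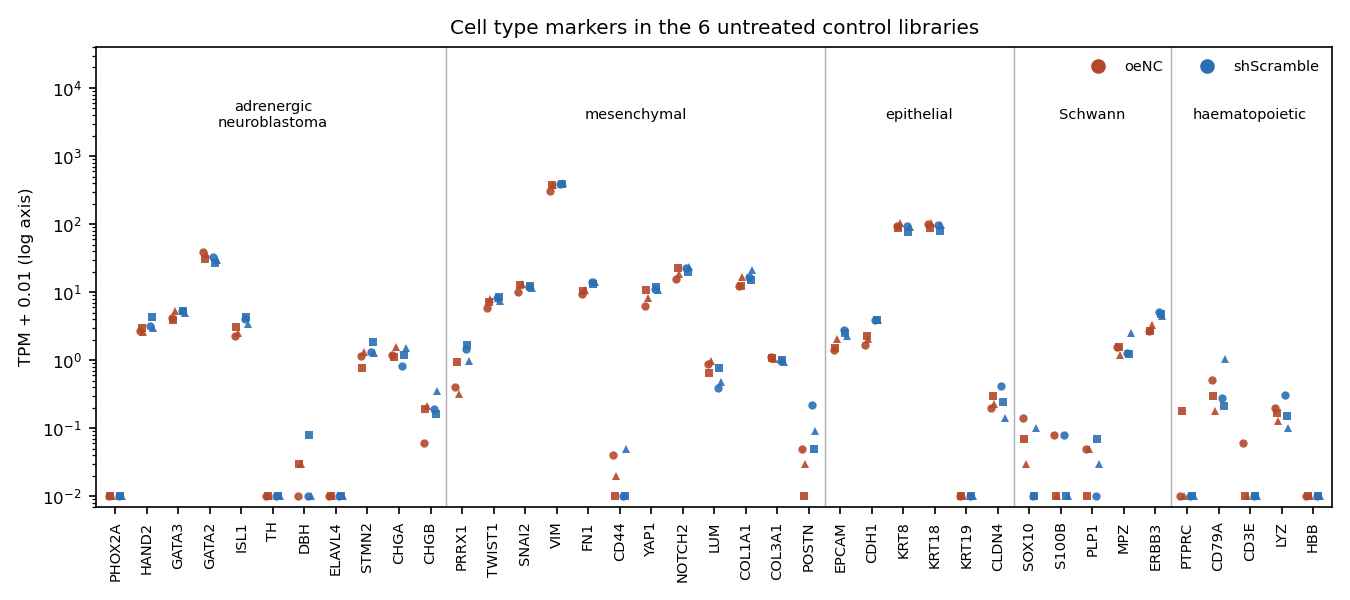
Level of each cell type marker (TPM + 0.01, log axis) in the 3 oeNC and 3 shScramble libraries, grouped by marker class. PHOX2A, TH and ELAVL4 lie on the floor in all 6 libraries, and KRT8, KRT18 and VIM lie between 77.43 and 403.66 TPM.

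SLC25A51 itself differed between the controls. It stood at 29.52, 35.66 and 29.74 TPM in oeNC, against 10.52, 11.08 and 11.25 TPM in shScramble. The groups did not overlap, and the mean was 2.89 times as high in oeNC, 31.6 ± 3.5 TPM against 10.9 ± 0.4 TPM (SD, n = 3 each). The log2 difference of 1.44 ± 0.14 (SE) had an adjusted p of 0.0014 (limma), while an exact two-sided permutation test on the 6 values gave p = 0.1, the smallest that 3 against 3 allows. The gene lies on chromosome 9, 37879400 to 37904353, minus strand (GENCODE 29, GRCh38). It averaged 683 TPM in oeMCART1 cells and 7.28 TPM in shMCART1 cells, so the overexpression arm starts from a higher base than the knockdown arm. With MPP+ the controls did not separate, at 7.87, 8.15 and 9.44 TPM in oeNC_MPP against 6.87, 8.38 and 8.47 TPM in shScramble_MPP (log2 difference 0.09, adjusted p = 0.42, limma).

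Across all members, 352 genes (2.54%) passed an adjusted p of 0.05 in limma on log2(TPM + 1), 41 higher (0.296%) and 311 lower (2.24%) in oeNC. Most differences were small: 25 of the 352 reached 1 on the log2 scale, 12 higher and 13 lower. Protein-coding genes made up 25 of the 41 higher and 296 of the 311 lower genes, against 11860 of all members. The median log2 difference over all members was -0.18, with quartiles of -0.38 and 0.02, and 4478 genes (32.3%) had all oeNC libraries under all shScramble libraries, against 666 (4.80%) the other way. With median-of-ratios scaling the median was 0.00 and the calls split into 109 higher and 104 lower. With mitochondrial genes left out of the total, 67 genes were called, 21 higher and 46 lower. With only the 2 controls in the fit, 79 genes were called, 30 higher and 49 lower. For scale, on the same genes oeMCART1 against oeNC gave 6988 calls (50.4%) and shMCART1 against shScramble 5193 (37.4%); each of these shares libraries with the comparison of the controls.

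The count of 352 rests on which libraries are in the fit. It was 9, 2593 and 35 without oeNC replicates 1, 2 and 3 and 17, 7 and 16 without shScramble replicates 1, 2 and 3. SLC25A51, BMP2, BHLHE40, DDIT4, CXCR4 and TSC22D3 were called in all 6 of these fits. TSC22D3, which encodes a glucocorticoid-induced leucine zipper protein, is outside the naming rule and was chosen after its values were seen. It stood at 82.52, 69.27 and 80.37 TPM in oeNC, against 136.07, 136.25 and 135.18 TPM in shScramble (log2 difference -0.81, adjusted p = 0.0012, limma).

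Transcript GC content moved with the difference. Ranked by GC, genes in the lowest of 5 equal bins had a median log2 difference of -0.38 and those in the highest bin 0.03, and Spearman's rho across 13403 genes was 0.57; genes are not independent replicates. The trend differed between libraries of the same group. Measured as the median deviation of the highest bin minus that of the lowest, it was 0.48, -0.13 and 0.29 in oeNC replicates 1 to 3 and -0.08, -0.51 and -0.05 in shScramble replicates 1 to 3. After removal of the GC trend from every library 1132 of 13403 genes (8.45%) were called, 515 higher (3.84%) and 617 lower (4.60%), and 40 of the 41 higher and 234 of the 311 lower genes were among them with the same direction. In that fit the count ran between 291 and 1109 when each library was left out in turn, an alternative added after the data were seen. Without oeNC replicate 2, the untreated fit with the most calls, the counts of many gene lists were higher as well. On deposited values that fit called 2446 of 13867 genes lower and 147 higher. List counts given below without that library are read against these.

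**Figure D2:**
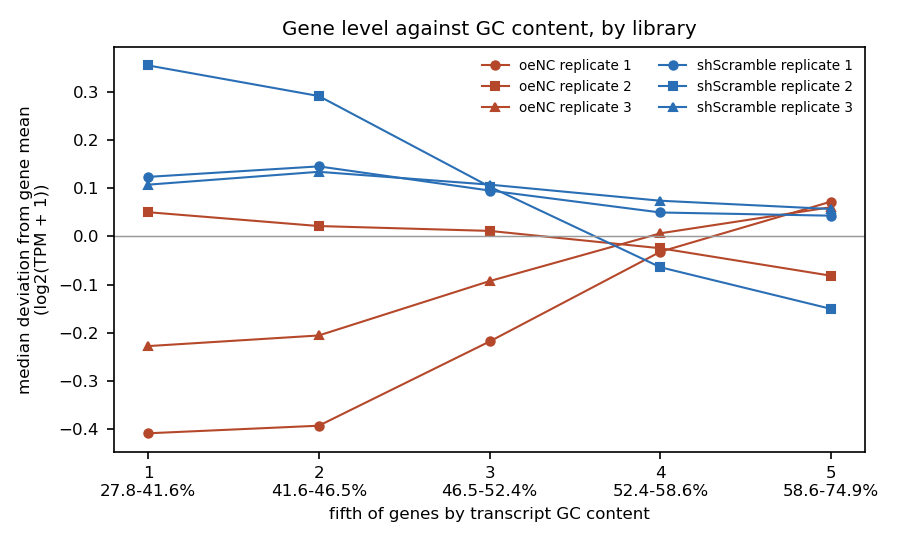
Median deviation from the gene mean on the log2(TPM + 1) scale (vertical axis) in 5 bins of genes by transcript GC content (horizontal axis), 1 line for each oeNC and shScramble library. The lines of oeNC replicate 1 and shScramble replicate 2 lie farthest apart at low GC, at -0.41 and 0.35.

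The mitochondrial genome encodes 13 proteins, core parts of the respiratory chain and of ATP synthase, and their mRNAs took a larger share of oeNC libraries. They made up 9.84, 8.59 and 7.66% of TPM in oeNC replicates 1 to 3, against 4.95, 4.61 and 5.13% in shScramble replicates 1 to 3. The groups did not overlap, and the means were 8.70 ± 1.09% in oeNC and 4.90 ± 0.27% in shScramble (SD, n = 3 each; exact two-sided permutation p = 0.1, the smallest possible). The 3 oeNC libraries also lay above the other untreated groups, which ranged between 3.85 and 5.00% in shMCART1 and between 4.05 and 5.01% in oeMCART1.

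Of the 13 mRNAs, 10 were called higher, where 0.296% of all members were. All 13 had non-overlapping groups in that direction, where 4.80% of all members did. Their median log2 difference was 0.84, against -0.18 over all members. MT-CYB, the cytochrome b of complex III, stood at 2690.51, 2322.76 and 1941.19 TPM in oeNC, against 1123.53, 1060.48 and 1158.08 TPM in shScramble (log2 difference 1.04, adjusted p = 0.020, limma). MT-CO2, which carries a copper centre of cytochrome c oxidase, averaged 10759 TPM in oeNC and 6006 TPM in shScramble (log2 difference 0.84, adjusted p = 0.015, limma). MT-ND4, MT-ND5 and MT-ND6 missed the threshold at log2 differences of 0.64, 0.73 and 0.75. The count of calls depended on the libraries: it was 0, 10 and 5 without oeNC replicates 1, 2 and 3 and 1, 0 and 1 without shScramble replicates 1, 2 and 3. With the GC trend removed it was 13, and 12 or 13 with any of the 6 libraries left out. MTND1P23 and MTCO1P12, nuclear pseudogene copies of mitochondrial genes, were called higher too, by 1.30 and 0.94 on the log2 scale, and reads of these copies may not be told apart from the mitochondrial originals.

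Their nuclear partners were called about as often as all members, of which 2.54% were. Of 37 nuclear complex I subunits 0 were called higher and 1 lower (NDUFS1, which holds iron-sulfur clusters of the electron input module), and of 38 nuclear subunits of complexes II to V 0 were higher and 1 lower (ATP5PD, in the stalk of ATP synthase). Among 18 genes of mitochondrial DNA maintenance and transcription 0 were higher and 1 lower (TFB1M, an rRNA methyltransferase). The medians of these lists were -0.02, -0.04 and -0.21 on the log2 scale; with the GC trend removed they were 0.15, 0.15 and 0.06, and the 3 named genes had values of -0.31, -0.06 and -0.10. Among 37 SLC25 carriers, the mitochondrial family to which SLC25A51 belongs, SLC25A51 alone was called on deposited values, and 2 were higher with the GC trend removed. Without oeNC replicate 2 the lower counts were 4 in complex I and 7 in complexes II to V. In mitochondrial DNA maintenance it was 7 and among the carriers 2, where 2446 of all 13867 members were lower. In each of the other 5 fits without 1 library, 0 were lower in these 4 lists.

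The bone morphogenetic protein (BMP) pathway works by ligands that bind serine-threonine kinase receptors, which phosphorylate SMAD proteins that switch on the ID genes and the inhibitor SMAD6. The ligand BMP2 had the largest increase by the naming rule. It stood at 16.46, 23.39 and 19.24 TPM in oeNC, against 5.17, 5.43 and 5.15 TPM in shScramble, groups that did not overlap (log2 difference 1.71 ± 0.14 (SE), adjusted p = 0.00047, limma). Its gene lies on chromosome 20, 6767664 to 6780280, plus strand (GENCODE 29, GRCh38).

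Its target genes were mixed. ID1, an inhibitor of basic helix-loop-helix factors, stood at 41.03, 35.43 and 36.05 TPM in oeNC, against 25.73, 25.27 and 23.88 TPM in shScramble (log2 difference 0.57, adjusted p = 0.013, limma). ID3, of the same family, stood at 320.54, 247.82 and 300.60 TPM in oeNC, against 190.15, 169.51 and 191.13 TPM in shScramble (log2 difference 0.65, adjusted p = 0.018, limma). SMAD6 averaged 11.4 TPM in oeNC and 7.65 TPM in shScramble (log2 difference 0.52, adjusted p = 0.036, limma). None of these 3 overlapped between groups, whereas ID4, a further family member, was lower in oeNC (24.92, 29.71 and 25.19 TPM, against 38.74, 41.73 and 38.20 TPM in shScramble; log2 difference -0.56). In the whole list of 23 tested BMP and TGF-β genes 4 were higher and 1 lower, where 0.296% and 2.24% of all members were. The median was -0.11, or 0.01 with the GC trend removed. The receptors TGFBR1, BMPR1A and BMPR2 were not called, at log2 differences of -0.55, -0.42 and -0.06. Without 1 library the higher count was 1 to 4, and with the GC trend removed it was 4 in each of the 6 fits.

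**Figure D3:**
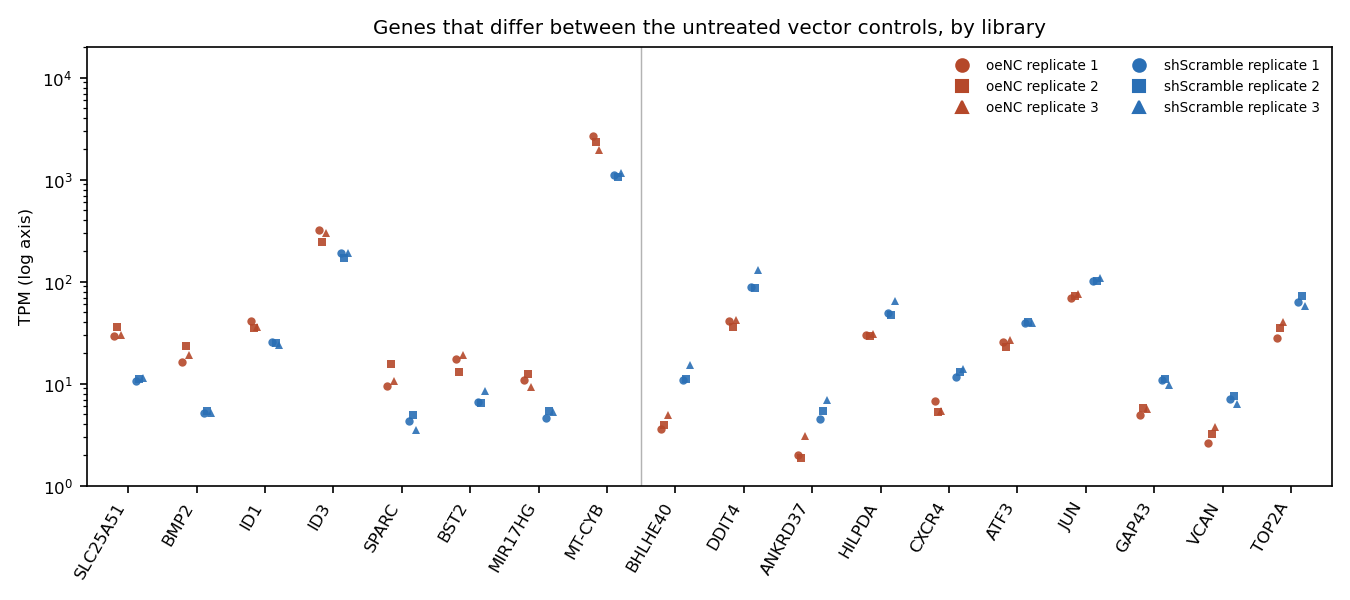
TPM (log axis) of 18 genes in each of the 3 oeNC and 3 shScramble libraries, 8 genes higher in oeNC left of the line and 10 lower in oeNC right of it. No gene shown overlaps between the groups.

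HIF-1, the hypoxia-inducible factor, binds a short core sequence near its targets and turns on genes of glycolysis, mitophagy and growth control when oxygen is short or its hydroxylases are inhibited. Of 22 tested HIF-1 targets outside glycolysis 8 were lower in oeNC and 0 higher, where 2.24% and 0.296% of all members were. Their median log2 difference was -0.59 (-0.18 over all members). In 17 of the 22 all oeNC libraries lay under all shScramble libraries, where 32.3% of all members did so. With median-of-ratios scaling the median was -0.40. With the GC trend removed it was -0.29 with 7 lower and 0 higher (4.60% and 3.84% over all genes in that fit). On deposited values the lower count was 1, 12 and 3 without oeNC replicates 1, 2 and 3 and 1 in each fit without a shScramble library. With the GC trend removed it stayed between 5 and 7 with any library left out.

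DDIT4, an inhibitor of mTORC1 that stress and low oxygen induce, stood at 41.13, 36.11 and 42.57 TPM in oeNC, against 88.85, 86.70 and 129.64 TPM in shScramble (log2 difference -1.31 ± 0.13 (SE), adjusted p = 0.0017, limma). BHLHE40, a transcriptional repressor that hypoxia induces and that the list does not hold, stood at 3.57, 3.98 and 4.91 TPM in oeNC, against 10.95, 11.19 and 15.32 TPM in shScramble (log2 difference -1.38 ± 0.15 (SE), adjusted p = 0.0024, limma). In both genes the groups were apart, and shScramble replicate 3 was the highest library. HILPDA, a lipid droplet protein, was also highest in shScramble replicate 3, with 29.92, 29.48 and 30.73 TPM in oeNC, against 49.06, 46.78 and 65.13 TPM in shScramble (log2 difference -0.80, adjusted p = 0.016, limma).

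BNIP3, a mitophagy receptor, stood at 29.50, 36.53 and 33.46 TPM in oeNC, against 54.00, 63.48 and 54.75 TPM in shScramble (log2 difference -0.78, adjusted p = 0.022, limma). ANKRD37, an ankyrin repeat protein, stood at 1.99, 1.88 and 3.07 TPM in oeNC, against 4.55, 5.39 and 6.99 TPM in shScramble (log2 difference -1.01, adjusted p = 0.024, limma). The collagen cross-linking enzyme LOX was also lower, 2.06 ± 0.55 TPM in oeNC and 4.69 ± 0.07 TPM in shScramble (SD, n = 3 each; log2 difference -0.91). MXI1, P4HA1 and BNIP3L completed the 8 at log2 differences of -0.70, -0.91 and -0.66, and PDK1, INSIG2 and KDM3A missed the threshold at -0.72, -0.77 and -0.62.

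The promoters of 4 of these genes, chosen after their values were seen, are shown because the genes moved together and HIF-1 is known to bind the core ACGTG or GCGTG. Capitals mark each match on either strand, so a match on the other strand reads CACGT or CACGC, and overlapping matches run together. The sequences are 300 bases each from RefSeq (GRCh38.p14), 250 before the start and 50 after it, read 5′ to 3′ on the gene's strand. DDIT4 is at chr10:72273674-72273973, plus strand, BHLHE40 at chr3:4979187-4979486, plus strand, ANKRD37 at chr4:185396591-185396890, plus strand, and BNIP3 at chr10:131981874-131982173, minus strand.
DDIT4: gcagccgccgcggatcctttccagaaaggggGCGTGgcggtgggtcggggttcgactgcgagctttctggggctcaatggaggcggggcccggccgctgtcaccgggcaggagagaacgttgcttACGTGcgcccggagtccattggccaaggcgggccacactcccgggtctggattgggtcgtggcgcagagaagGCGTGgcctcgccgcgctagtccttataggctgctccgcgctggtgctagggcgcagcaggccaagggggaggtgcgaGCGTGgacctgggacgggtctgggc
BHLHE40: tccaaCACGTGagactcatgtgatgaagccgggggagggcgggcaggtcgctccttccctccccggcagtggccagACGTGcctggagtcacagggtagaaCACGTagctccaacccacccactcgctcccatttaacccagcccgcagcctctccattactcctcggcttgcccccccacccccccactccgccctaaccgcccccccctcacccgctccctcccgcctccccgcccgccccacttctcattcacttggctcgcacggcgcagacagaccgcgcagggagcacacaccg
ANKRD37: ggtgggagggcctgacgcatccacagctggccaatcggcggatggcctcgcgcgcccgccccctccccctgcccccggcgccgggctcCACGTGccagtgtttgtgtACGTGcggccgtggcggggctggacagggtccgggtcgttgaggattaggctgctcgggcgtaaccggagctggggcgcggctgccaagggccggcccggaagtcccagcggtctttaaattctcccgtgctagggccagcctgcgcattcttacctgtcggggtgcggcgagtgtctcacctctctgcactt
BNIP3: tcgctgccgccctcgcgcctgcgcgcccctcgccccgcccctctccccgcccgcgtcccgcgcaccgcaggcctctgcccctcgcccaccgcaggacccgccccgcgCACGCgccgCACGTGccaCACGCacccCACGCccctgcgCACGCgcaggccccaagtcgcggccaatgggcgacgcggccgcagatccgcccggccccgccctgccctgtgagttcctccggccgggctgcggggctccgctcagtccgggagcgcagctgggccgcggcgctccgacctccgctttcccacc
The 4 windows held 4, 4, 3 and 6 matches in the order shown, and some lie in CACGTG, which other basic helix-loop-helix factors can bind. The 17 tested HIF-1 targets with a promoter entry had 24 entries, of which 20 held a match, and over all 35116 promoter entries of that length 48.4% held one. The entries were not matched for GC content, so the 2 shares are given as a description. A match in these letters does not show binding.

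Glycolytic genes were lower where they were called. Of 22 tested, 3 were lower and 0 higher (2.24% and 0.296% over all members), with a median of -0.24. With the GC trend removed 7 were lower and 0 higher (4.60% and 3.84% over all genes in that fit), with a median of -0.14. The lower count was 7 without oeNC replicate 2 and 0 or 1 without any other library. SLC2A3, the high-affinity glucose transporter GLUT3, stood at 5.99, 6.14 and 7.29 TPM in oeNC, against 12.61, 11.69 and 13.66 TPM in shScramble (log2 difference -0.87, adjusted p = 0.012, limma). LDHA, which makes lactate, averaged 644 ± 81 TPM in oeNC and 933 ± 56 TPM in shScramble (SD, n = 3 each; log2 difference -0.54, -0.19 with the GC trend removed). PGK1 was lower on deposited values (-0.28) but not once the GC trend was removed (0.08, not called).

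CXCR4, the receptor of the chemokine CXCL12, which hypoxia can also induce, stood at 6.73, 5.27 and 5.45 TPM in oeNC, against 11.62, 13.09 and 13.79 TPM in shScramble (log2 difference -1.02 ± 0.12 (SE), adjusted p = 0.0028, limma). The groups were apart by more than the spread within either. ANXA1, a calcium-dependent phospholipid-binding protein, averaged 5.21 ± 0.35 TPM in oeNC and 13.4 ± 2.8 TPM in shScramble (SD, n = 3 each), without overlap (log2 difference -1.20, adjusted p = 0.012, limma). It kept that direction with MPP+, at 7.82 TPM in oeNC_MPP and 21.8 TPM in shScramble_MPP on average.

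Immediate early genes, which respond to stimuli without new protein synthesis, were mixed. Of 22 tested, 1 was higher and 4 lower (0.296% and 2.24% over all members). With the GC trend removed 2 were higher and 4 lower (3.84% and 4.60% over all genes in that fit). ATF3, a stress-induced repressor, stood at 25.90, 22.85 and 26.79 TPM in oeNC, against 39.42, 40.42 and 39.49 TPM in shScramble (log2 difference -0.64, adjusted p = 0.012, limma). JUN, a subunit of AP-1, stood at 68.95, 72.96 and 76.37 TPM in oeNC, against 101.53, 100.62 and 109.22 TPM in shScramble (log2 difference -0.51, adjusted p = 0.021, limma). MYC averaged 136 TPM in oeNC and 175 TPM in shScramble (log2 difference -0.36), and KLF6 was lower by a log2 difference of -0.69. CCN1, a matrix protein and target of YAP, went the other way at 19.03, 20.50 and 20.09 TPM in oeNC, against 14.26, 13.57 and 11.74 TPM in shScramble (log2 difference 0.56, adjusted p = 0.024, limma). In the list of ATF4 and integrated stress response targets 5 of 36 were lower and 0 higher (2.24% and 0.296% over all members). Its median was -0.11, or 0.03 with the GC trend removed, and the 5 were DDIT4, ATF3, VLDLR, CTH and EPRS1. With the GC trend removed 4 genes of this list were higher and 6 lower. Without 1 library, 0 to 6 immediate early genes and 1 to 13 stress response targets were lower, the highest counts without oeNC replicate 2.

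Axonal and cytoskeletal genes were lower where called, 5 of 28 tested with 0 higher (2.24% lower and 0.296% higher over all members). GAP43, a growth cone protein, stood at 4.97, 5.80 and 5.61 TPM in oeNC, against 10.90, 11.09 and 9.79 TPM in shScramble (log2 difference -0.84, adjusted p = 0.012, limma). CRMP1, which acts in semaphorin signalling, and MAPT, the microtubule protein tau, were lower by log2 differences of -0.61 and -0.58, CNTN1 and MAP1B by -0.78 and -0.70. The list's median was -0.33, and -0.17 with the GC trend removed, when 10 were lower (4.60% over all genes in that fit). Without 1 library between 0 and 11 were lower on deposited values, and between 3 and 7 with the GC trend removed. Of 9 tested genes of catecholamine synthesis and transport 0 were called by limma, and at an unadjusted p under 0.05 there were 0 higher and 3 lower. Of all 13867 members, 4448 passed that limit in either direction.

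Among matrix, cell shape and cycle genes, SPARC, a collagen-binding matrix protein, was higher at 9.39, 15.49 and 10.70 TPM in oeNC, against 4.31, 4.91 and 3.52 TPM in shScramble (log2 difference 1.27, adjusted p = 0.015, limma). VCAN, the proteoglycan versican, was lower at 2.63, 3.19 and 3.75 TPM in oeNC, against 7.01, 7.57 and 6.39 TPM in shScramble (log2 difference -0.94, adjusted p = 0.021, limma). AMOT, a binding partner of YAP, averaged 82.8 ± 21 TPM in oeNC and 155 ± 9 TPM in shScramble (SD, n = 3 each; log2 difference -0.93). TOP2A, the topoisomerase of dividing cells, stood at 27.78, 34.96 and 39.87 TPM in oeNC, against 63.31, 71.93 and 57.38 TPM in shScramble (log2 difference -0.90, adjusted p = 0.018, limma). In the lists of cell division, 2 of 36 mitosis genes were lower (TOP2A and PRC1, a spindle midzone protein) and 1 of 37 replication genes (RRM1, a ribonucleotide reductase subunit). Over all members 2.24% were lower. The list counts rest on the libraries: without oeNC replicate 2 they were 16 and 11, where 2446 of all 13867 members were lower. They were at most 1 and 0 without any other library. At an unadjusted p under 0.05 the lower genes numbered 17 and 16, where 4448 of all 13867 members passed in either direction. With the GC trend removed 2 mitosis genes were higher and 3 lower, and 0 replication genes were higher and 4 lower. Over all genes in that fit 3.84% were higher and 4.60% lower.

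Of 32 interferon-stimulated genes BST2 alone was called, an antiviral membrane protein that stood at 17.66, 13.17 and 19.30 TPM in oeNC, against 6.64, 6.46 and 8.41 TPM in shScramble (log2 difference 1.11, adjusted p = 0.013, limma). Of 20 genes of small RNA biogenesis and RNA interference, 23 p53 targets, 23 genes of the endoplasmic reticulum unfolded protein response, 29 NRF2 and antioxidant genes and 26 cytosolic chaperones, 0 were called by limma. At an unadjusted p under 0.05, 2 of the RNA interference genes were higher and 3 lower, and 0 p53 targets were higher and 4 lower. By that limit 2 unfolded protein response genes were higher and 7 lower, 2 antioxidant genes higher and 11 lower, and 0 chaperones higher and 15 lower. Of all 13867 members, 4448 passed that limit in either direction. With the GC trend removed, the adjusted calls in these 5 lists were 2 higher and 1 lower, 1 higher and 0 lower, 6 higher and 0 lower, 3 higher and 0 lower, and 0 higher and 3 lower, in the same order. Over all genes in that fit 3.84% were called higher and 4.60% lower. Without oeNC replicate 2 the lower counts on deposited values were 2, 3, 4, 6 and 12 in these 5 lists. Among interferon-stimulated genes it was 5, and 2446 of all 13867 members were lower in that fit. With any other library left out, 0 were lower in all 6 lists. Of 79 cytosolic ribosomal protein genes 2 were lower, where 2.24% of all members were. These were RPL14 and RPS4X, each by a log2 difference of -0.30, and neither was called with the GC trend removed.

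A pair of microRNA host transcripts was higher in oeNC. MIR17HG, the host of the miR-17-92 cluster, stood at 10.80, 12.37 and 9.38 TPM in oeNC, against 4.57, 5.38 and 5.33 TPM in shScramble (log2 difference 0.95, adjusted p = 0.031, limma). MIR222HG, the host of miR-221 and miR-222, stood at 7.72, 7.41 and 5.44 TPM in oeNC, against 2.29, 2.11 and 3.10 TPM in shScramble (log2 difference 1.16, adjusted p = 0.043, limma). Both are long noncoding RNAs, and libraries made by oligo-dT capture measure the host and not the mature microRNAs. The mature sequences their hosts carry are shown, from RefSeq (GRCh38.p14), with the seed, bases 2 to 8, in capitals.
miR-17-5p: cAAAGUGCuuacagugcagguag
miR-20a-5p: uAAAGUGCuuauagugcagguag
miR-18a-5p: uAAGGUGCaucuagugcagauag
miR-19a-3p: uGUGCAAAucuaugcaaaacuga
miR-19b-3p: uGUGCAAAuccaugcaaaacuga
miR-92a-3p: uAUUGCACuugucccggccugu
miR-221-3p: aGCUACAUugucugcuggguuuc
miR-222-3p: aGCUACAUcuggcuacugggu
By seed, miR-17-5p and miR-20a-5p form one group, miR-19a-3p and miR-19b-3p another, and miR-221-3p and miR-222-3p one more. The first 6 lie on chromosome 13 and the last 2 on chromosome X.

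The U1 small nuclear RNA entries RNU1-27P, RNU1-1 and RNU1-2 were listed at 0 in all oeNC libraries, against 40.30, 28.99 and 10.83 TPM in shScramble. The 3 entries hold identical values in these 6 libraries, differ in the shMCART1 libraries, and are near-identical copies, so that their levels are uncertain, and U1 carries no poly(A) tail. They passed the filter only through shScramble, so neither a test nor a fold change is given for them.

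With MPP+ the 2 controls differed at 7120 of 13913 tested genes (51.2%), 777 higher (5.58%) and 6343 lower (45.6%) in oeNC_MPP. The 2 tables were normalized apart, so only differences within each are set side by side. Of 37 genes called higher in untreated oeNC and tested in both tables, 18 were also higher with MPP+ (48.6%, where 5.89% of all genes tested in both were), and of 298 called lower 205 were lower (68.8%, where 47.6% were). The other way round, these are 2.38% of 756 genes called higher with MPP+ and 3.35% of 6117 called lower. The GC trend was shared: Spearman's rho of the difference with GC was 0.63 with MPP+. Across 12842 genes Pearson's r of the 2 differences was 0.52, and 0.30 across 12496 genes with the GC trends removed.

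The mitochondrial mRNAs, BMP2, ID1 and ID3 kept their direction with MPP+. Mitochondrial mRNAs made up 0.421 ± 0.031% of TPM in oeNC_MPP and 0.285 ± 0.024% in shScramble_MPP (SD, n = 3 each). Of these 13 mRNAs 11 were called higher, where 5.58% of all tested genes were. BMP2 stood at 8.06, 7.43 and 7.58 TPM in oeNC_MPP, against 3.45, 3.55 and 3.64 TPM in shScramble_MPP (log2 difference 0.93, adjusted p = 6.1e-05, limma). ID1 and ID3 were higher by log2 differences of 0.67 and 0.63 and BST2 by 1.06, at 52.96 TPM in oeNC_MPP and 24.9 TPM in shScramble_MPP on average. In the whole list of BMP and TGF-β genes 5 of 22 were higher and 10 lower in oeNC_MPP, with a median of -0.19. Over all tested genes with MPP+ 5.58% were higher and 45.6% lower, so the lower count is near that share.

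Several HIF-1 related and immediate early genes went the other way. BHLHE40 stood at 14.56, 13.20 and 18.53 TPM in oeNC_MPP, against 9.07, 8.81 and 8.45 TPM in shScramble_MPP (log2 difference 0.74, adjusted p = 0.00024, limma), the opposite of the untreated pair. SLC2A3 turned in the same way, 18.91, 19.52 and 26.75 TPM in oeNC_MPP, against 13.16, 12.48 and 12.34 TPM in shScramble_MPP (log2 difference 0.72, adjusted p = 0.00064, limma). ANKRD37 did too, at 3.80, 9.29 and 20.37 TPM in oeNC_MPP, a wide spread, against 2.91, 2.81 and 2.69 TPM in shScramble_MPP. Of 22 HIF-1 targets 2 were higher and 7 lower with MPP+ (median -0.15), and of 20 immediate early genes 10 were higher and 0 lower. Over all tested genes with MPP+ 5.58% were higher and 45.6% lower, with a median of -0.25.

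**Figure D4:**
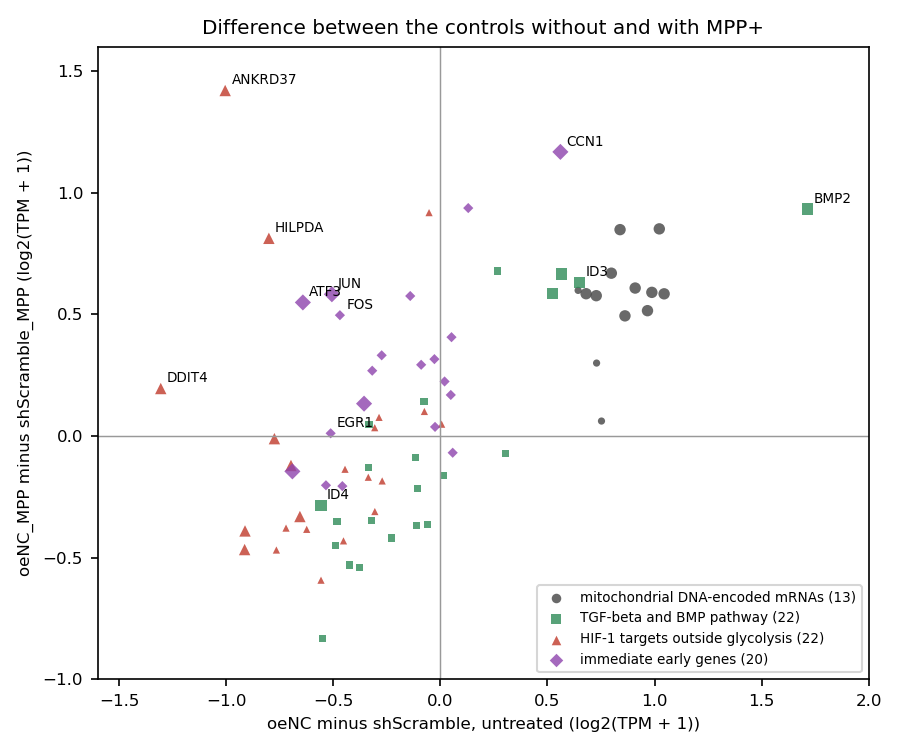
Difference between the controls on the log2(TPM + 1) scale, untreated (oeNC minus shScramble, horizontal) and with MPP+ (oeNC_MPP minus shScramble_MPP, vertical), for the members of 4 gene lists; large symbols passed the untreated test. The 13 mitochondrial mRNAs lie in the upper right, and ANKRD37, HILPDA, ATF3 and JUN in the upper left.

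The change of the gap itself, MPP+ minus untreated, was called for 257 of 14545 genes (1.77%), 109 upward (0.749%) and 148 downward (1.02%). SLC25A51 changed downward, with a gap of 0.09 with MPP+ and 1.44 untreated (change -1.35, adjusted p = 0.00048, limma). BHLHE40 had the upward change with the smallest adjusted p among the HIF-1 related genes named (2.12, adjusted p = 2.0e-06, limma), followed by SLC2A3 (1.59, adjusted p = 3.7e-05, limma) and DDIT4 (1.50, adjusted p = 6.1e-05, limma). The count fell to 42 without shScramble_MPP replicate 3 and to 21 with only the 4 groups in the fit.

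By chromosome, differences with the GC trend removed were small. Among autosomes chromosome 9 had the lowest median in both tables, -0.07 untreated over 535 genes and -0.08 with MPP+. It lay in all 3 oeNC libraries under the gene mean, at -0.05, -0.03 and -0.04, and in all 3 shScramble libraries above it, at 0.04 each. That split was not particular to chromosome 9. Chromosomes 4 and 8, among others, had it too, with untreated medians of -0.06 each, and -0.04 and -0.03 with MPP+. Chromosome 9 was split at 70 Mb, a point chosen after the data were seen. Untreated, 378 genes beyond it had a median of -0.10 with 56 called lower and 1 higher. The 157 genes before it, where SLC25A51 lies, had a median of 0.00 with 5 each way. Over all genes in that fit 4.60% were called lower and 3.84% higher. With MPP+ the medians were -0.12 over 374 genes beyond that point and 0.05 over 158 genes before it. On deposited values the untreated sides differed less, with medians of -0.26 beyond that point and -0.20 before it. There 19 of 378 genes were called lower and 0 higher beyond it, and 6 of 157 lower and 1 higher before it. Over all members 2.24% were lower and 0.296% higher.

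**Figure D5:**
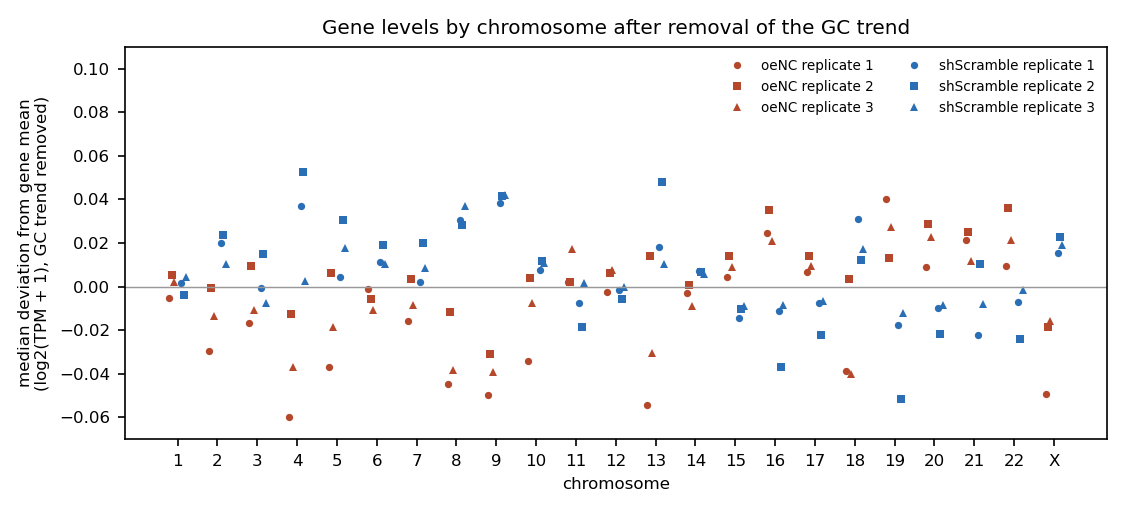
Median deviation from the gene mean by chromosome (log2(TPM + 1), GC trend of each library removed) in the 3 oeNC and 3 shScramble libraries. On chromosome 9 the oeNC libraries lie between -0.05 and -0.03 and the shScramble libraries at 0.04.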

How the data were processed

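Processed tables were used, one for the untreated and one for the MPP+ libraries, holding TPM values that the authors deposited per gene and library. Per the labels' protocols, mRNA was captured with oligo-dT and made into strand-specific libraries. Per the submitters' processing notes, the builds were GRCh38, GRCm38 and mm10, with no role stated; neither aligner nor counter is named in the sources used here. TPM keeps no read depth, so the depth behind each value is unknown. The members and gene lists were chosen with earlier results of these data known.

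Genes with at least 1 TPM in 3 of the 6 control libraries were tested with limma 3.58.1 (R 4.3.3; trended empirical Bayes, Benjamini-Hochberg threshold 0.05) on log2(TPM + 1), which understates changes of low genes, in a fit with all 4 groups of a table. The change of the gap was fitted over the 24 libraries of both tables, which were normalized apart. GC content came from GENCODE 29 transcripts, and its trend was removed per library by a natural spline with 5 degrees of freedom. The procedure was tested on simulated data. Named were SLC25A51; up to 15 genes each way with the largest difference among called genes whose groups were apart and whose higher mean reached 5 TPM; up to 10 each way called in both tables; up to 8 each way under 0.5 TPM in 1 control and at least 3 in the other; up to 4 called genes per list over 45 lists; and up to 6 each way with a called change of the gap. Further list members were named, after their values were seen, to complete a count. Some marker genes are not reported here. Alternatives covered scaling, filters, pseudocount, GC and length trends, library weights, a replicate block and each library left out.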

Additional observations from a re-analysis of the deposited data

Results flagged for a closer look

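For 21 of the named genes the gap between the controls changed between the untreated and the MPP+ libraries by the test of that difference itself (limma over both tables, adjusted p under 0.05). Of these, 12 were named, some on other grounds too, because this change was called, and the others because the untreated gap was, so neither their number nor their direction is a result. The 2 tables were normalized apart, and the share of mitochondrial mRNA moved with the treatment, 0.421% in oeNC_MPP and 0.285% in shScramble_MPP, against 8.70% in untreated oeNC and 4.90% in untreated shScramble; its part in these values was not tested.

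Each value is the log2 gap with MPP+ (oeNC_MPP minus shScramble_MPP) minus the untreated gap (oeNC minus shScramble). Among HIF-1 related and glycolytic genes the change was 2.43 for ANKRD37, 2.12 for BHLHE40, 1.61 for HILPDA, 1.59 for SLC2A3, 1.50 for DDIT4, 0.76 for BNIP3, 0.72 for LDHA and 0.41 for PGK1. CXCR4 changed by 1.62, with 2.51, 3.48 and 8.64 TPM in oeNC_MPP against 2.39, 2.49 and 2.70 TPM in shScramble_MPP, so that 1 oeNC_MPP library carried most of the gap. Among stress-induced transcription factors ATF3 changed by 1.19 and JUN by 1.09. The tau gene MAPT changed by 0.58, and the sterol genes INSIG1 and FDFT1, a regulator of sterol sensing and squalene synthase, by 1.14 and 0.29.

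Downward changes were -1.35 for SLC25A51, -0.78 for BMP2, -1.35 for MAT2A, which makes S-adenosylmethionine, -1.19 for CTNS, the lysosomal cystine exporter, and -1.12 for NAGPA, which acts in lysosomal enzyme targeting. MAT2A stood at 21.58, 30.11 and 41.18 TPM in oeNC_MPP, against 60.17, 74.35 and 80.36 TPM in shScramble_MPP, and did not separate untreated. The read-through transcript SLX1A-SULT1A3 changed by -1.68 and the antisense RNA EXOSC10-AS1 by -1.22; both share sequence or position with other genes, and their levels are uncertain.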

How the results depend on the processing

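Against 352 untreated calls, median-of-ratios scaling gave 213, leaving mitochondrial genes out of the total 67, a filter on 3 of the 12 untreated libraries 189 calls, no filter 60, only the 2 controls in the fit 79, GC removal 1132, GC and length removal 1110, and library weights 8054 (the weighting stopped before it converged and gave oeNC replicate 3 a weight of 9.21, against 0.16 to 1.40 in the other 5). Leaving out 1 library gave 7 to 2593 calls, and with the GC trend removed, an alternative added after the data were seen, 291 to 1109 (610 without shScramble replicate 3). The MPP+ count of 7120 became 3264 with GC removal and 3205 with GC and length removal. The 257 changes of the gap became 1075 with GC removal, 1191 with GC and length removal, 3442 with library weights, 21 with only the 4 groups compared, and 42 to 364 over the 12 fits without 1 library (lowest without shScramble_MPP replicate 3, highest without oeNC_MPP replicate 3). The cause of these moves was not tested. With the GC trend removed the log2 differences of RPL14 and PGK1 reversed, to 0.043 and 0.080. Of 847 named-gene results under alternatives 428 kept direction and side of the threshold, 409 kept direction and missed it, 8 passed it newly and 2 reversed. The differences in SLC25A51 level and mitochondrial share kept their direction in every alternative run.

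The labels do not say whether replicate numbers pair the samples, and the main fit does not pair them. Deviations of same-numbered oeNC and shScramble libraries correlated at 0.12, 0.31 and 0.05. Other pairs of an oeNC and a shScramble library ranged between -0.23 and 0.15, and not every library correlated best with its own number. These values do not settle whether the libraries are paired. With a replicate block 2208 genes were called. TPM values carry no depth, so counting error could not be set beside the spread between libraries, and low genes are the least certain.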

Other observations

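Several further genes by the naming rule belong to no list. LINC01605, a long noncoding RNA, appears under a pair of identifiers that were both lower in oeNC, one at 1.57, 2.55 and 3.45 TPM in oeNC against 16.52, 9.98 and 15.13 TPM in shScramble, and the other at 10.16, 10.76 and 10.45 TPM in oeNC against 18.80, 22.44 and 22.85 TPM in shScramble. LRBA, a vesicle trafficking scaffold that protects CTLA4 from lysosomal degradation, stood at 6.08, 8.73 and 7.91 TPM in oeNC, against 15.46, 17.90 and 14.03 TPM in shScramble. OMA1, the inner membrane protease of mitochondrial stress, stood at 10.37, 14.55 and 12.29 TPM in oeNC, against 21.94, 23.46 and 22.24 TPM in shScramble, and at 8.03 TPM in oeNC_MPP and 16.5 TPM in shScramble_MPP on average. NMRK1, which phosphorylates nicotinamide riboside on the way to NAD+, was the 1 of 21 genes of NAD metabolism that was called, at 2.91, 3.07 and 3.45 TPM in oeNC against 6.28, 8.20 and 5.62 TPM in shScramble (log2 difference -0.88, adjusted p = 0.036, limma; -0.50 and not called with the GC trend removed).

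Of the 45 gene lists 19 held no called gene, 19 held only lower, 4 only higher and 3 both, where 2.24% of all members were called lower and 0.296% higher.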
